A study of Homo sapiens with 6 samples.

Results

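The genes described here were 10 members of the heterogeneous nuclear ribonucleoprotein (hnRNP) family, namely HNRNPA0, HNRNPA1, HNRNPA2B1, HNRNPA3, HNRNPC, HNRNPF, HNRNPK, HNRNPL, HNRNPM and HNRNPU. They were taken by symbol from 6 expression tables that each list 24934 records of 23284 gene symbols. Each of the 10 has 1 record in the tables. All 10 were among the 11134 genes tested, those whose mean FPKM exceeded 1 in either group. FPKM counts fragments per kilobase of transcript, scaled to the mapped reads of the sample, so that levels can be compared between genes of different length.

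The samples were 3 control and 3 lyophilized batches of GM12873, a human B-lymphoblastoid cell line. Control cells went from the PBS wash into trizol, whereas lyophilized cells were freeze-dried in PBS with 0.1 M trehalose, a sugar used as a lyoprotectant, and kept at room temperature for 2 weeks before trizol was added. Poly(A)-selected RNA from both groups was sequenced, and the labels join control and lyophilized samples of the same number into 3 pairs. All samples come from 1 cell line, and the lyophilized group differs from the controls in the drying, the trehalose and the storage together. The labels do not say that the batches were separate cultures, so that p-values measure the spread between these samples, which may be technical.

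The hnRNP proteins are abundant RNA-binding proteins that coat nascent transcripts in the nucleus and act in splicing, polyadenylation, export, translation and stability of mRNA. Most of them bind through RNA recognition motifs (RRMs), in which a conserved stretch named RNP1 contacts the RNA. hnRNP K binds through KH domains instead, and hnRNP U carries an RGG region and also binds DNA. Dividing cells such as lymphoblastoid lines express most of the family.

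The A/B members are close relatives, and their coding bases are compared here over the short stretch of RNP1 in the second RRM. The search pattern was arginine or lysine, glycine, phenylalanine or tyrosine, glycine or alanine, phenylalanine, valine or isoleucine, any residue, and phenylalanine or tyrosine, looked for in frame on the coding strand. It was found in 81 of the 19894 coding sequences searched (0.407%). HNRNPA0 and HNRNPC held 1 such stretch, and HNRNPA1, HNRNPA2B1 and HNRNPA3 held 2. HNRNPF, HNRNPK, HNRNPL, HNRNPM and HNRNPU held 0, so this pattern did not cover the whole list. The last stretch of each A/B member is printed here 5′ to 3′ from the GENCODE transcripts, with capitals at the 12 of 24 positions at which the members differ.
HNRNPA0, coding bases 415 to 438: CgTggAttCgGCttCgtGTATttC
HNRNPA1, coding bases 436 to 459: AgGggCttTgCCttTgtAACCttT
HNRNPA2B1, coding bases 421 to 444: AgAggCttTgGCttTgtTACTttT
HNRNPA3, coding bases 499 to 522: AgAggAttTgCTttTgtAACTttT
HNRNPA0 stood apart in this stretch, differing from the other 3 at between 9 and 11 positions, whereas HNRNPA1, HNRNPA2B1 and HNRNPA3 differed from one another at 4 positions each. Because the stretch was found by its residues, part of the likeness follows from the search. It does not measure how alike the whole mRNAs are.

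Sequence likeness matters for these values because the authors kept only reads that mapped to 1 position. No stretch of 75 bases, the length of a read, was shared between any of the 10 transcripts, but several members have copies elsewhere in the genome. Of the 75-base stretches of the coding part, 83.8% of HNRNPA3, 74.2% of HNRNPA1 and 36.4% of HNRNPC had an exact copy at another place. The share was 13.9% for HNRNPL, 6.15% for HNRNPK and 0.625% for HNRNPU, and it was 0% for HNRNPA0, HNRNPA2B1, HNRNPF and HNRNPM. Over the whole transcript it was 36.4% for HNRNPA1, 25.7% for HNRNPA3, 24% for HNRNPC, 13% for HNRNPL, 9.88% for HNRNPK and 0.545% for HNRNPU. Reads from copied stretches cannot be placed uniquely, so the levels of HNRNPA1, HNRNPA3 and HNRNPC rest on the rest of their transcripts and are uncertain in height, and how this touches the difference between the groups was not tested.

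**Figure D1:**
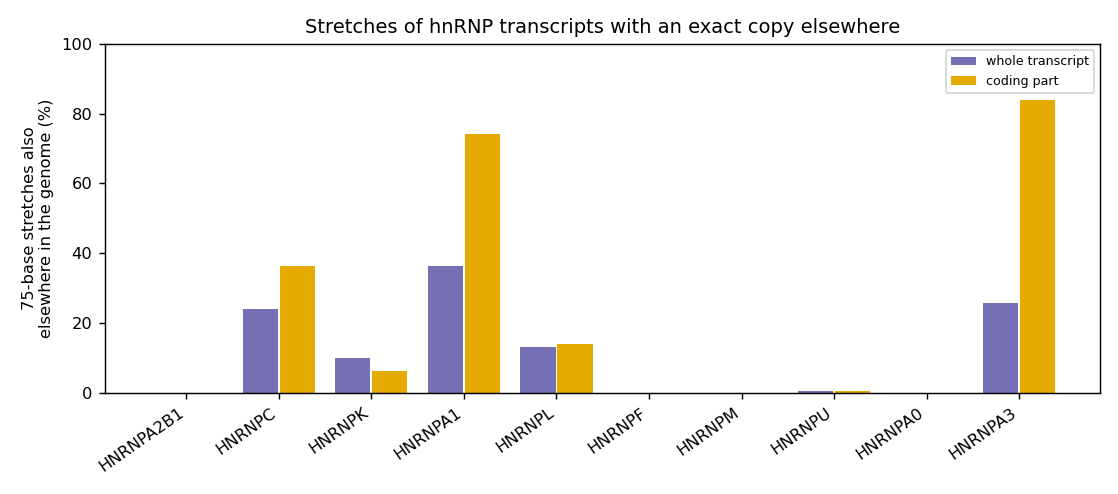
Percent of all 75-base stretches of each hnRNP transcript (purple) and of its coding part (yellow) that occur exactly at another place in the genome, with genes ordered from left to right by control level. HNRNPA1 and HNRNPA3 have the tallest coding bars, 74.2% and 83.8%, beside whole-transcript bars of 36.4% and 25.7%, and 4 genes have none.

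HNRNPA1 has copies in 39 windows of 10 kb, and HNRNPA1L2, a gene of 1 exon on chromosome 13, is one that the tables list as a gene of its own. Over 960 aligned coding bases the pair was identical at 945 (98.4%), with a longest identical run of 174 bases. The following 30 bases of both, coding bases 6 to 35, show the kind of difference by which a read can be assigned, with the differing bases in capitals.
HNRNPA1: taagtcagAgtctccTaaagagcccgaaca
HNRNPA1L2: taagtcagCgtctccAaaagagcccgaaca
The HNRNPA1L2 record covers chr13:53191605-53217919, which is wider than the annotated transcript of 1343 bases. Its listed level therefore need not be that of this transcript alone. HNRNPA1L2 was listed at 40.0, 61.8 and 47.3 FPKM in control samples 1 to 3, against 47.6, 59.0 and 56.6 FPKM in their lyophilized counterparts. Its lowest value was in control 1 and its highest in control 2, as for HNRNPA1 within the control group.

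The A/B members held both the highest and the lowest level among the 10. HNRNPA2B1, which sorts and transports mRNA and regulates splicing, lies at chr7:26229556-26240413 on the minus strand of GRCh37. It was listed at 146, 342 and 269.6 FPKM in control samples 1 to 3, against 193, 346 and 324 FPKM in their lyophilized counterparts. Both samples of pair 1 were far below the other 4, and the groups overlapped. Its control mean of 253 ± 99.1 FPKM (SD, n = 3) was the highest of the 10 members and the 237th highest of the 11134 genes tested.

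HNRNPA1, a shuttling splicing regulator at chr12:54674488-54679030 on the plus strand, was listed at 102, 149 and 120.2 FPKM in control samples 1 to 3, against 122, 157 and 140.2 FPKM in their lyophilized counterparts. Each lyophilized sample was above the control of its pair, and the groups overlapped. The record HNRNPA1P10, named as a pseudogene of HNRNPA1, lies inside the HNRNPA1 record and was listed at between 13.7 and 40.0 FPKM over the 6 samples. Fragments there cannot be told apart between the records with certainty, so the HNRNPA1 value is uncertain.

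HNRNPA0, which binds AU-rich elements and is encoded by a single exon, lies at chr5:137087073-137090039 on the minus strand. It was listed at 38.7, 54.7 and 50.5 FPKM in control samples 1 to 3, against 38.7, 49.4 and 47.6 FPKM in their lyophilized counterparts. Pair 1 was lowest in both groups, and no lyophilized sample was above its own control. HNRNPA3, which binds trafficking elements of cytoplasmic mRNA, lies at chr2:178077422-178088685 on the plus strand. Its values were 21.0, 40.0 and 33.2 FPKM in control samples 1 to 3, against 25.8, 41.5 and 37.5 FPKM in their lyophilized counterparts. HNRNPA3 was the lowest member in all 6 samples.

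HNRNPC, which binds uridine tracts and forms the core of the hnRNP particle, lies at chr14:21677296-21737638 on the minus strand. It was listed at 153, 163 and 169 FPKM in control samples 1 to 3, against 166, 182 and 192 FPKM in their lyophilized counterparts. HNRNPC was the steadiest member, with a coefficient of variation of 4.99% over the controls, and its lyophilized samples lay above their own controls in all 3 pairs although the groups still overlapped. HNRNPK, which binds cytidine-rich RNA and DNA, lies at chr9:86582998-86595569 on the minus strand. Its values were 109, 169.9 and 139.5 FPKM in control samples 1 to 3, against 132, 177 and 153.5 FPKM in their lyophilized counterparts, again higher within each pair.

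HNRNPF, which binds guanosine tracts near splice sites, lies at chr10:43881065-43904696 on the minus strand. It was listed at 78.4, 129 and 112 FPKM in control samples 1 to 3, against 95.2, 129.9 and 122 FPKM in their lyophilized counterparts. Samples of pair 2 were nearly level, while those of pair 1 differed by a ratio of 1.22. HNRNPL, which binds CA repeats and regulates splicing in lymphocytes, lies at chr19:39327028-39342979 on the minus strand. Its values were 104, 140 and 122 FPKM in control samples 1 to 3, against 96.7, 127 and 114 FPKM in their lyophilized counterparts. In every pair HNRNPL was lower in the lyophilized sample, the reverse of HNRNPF.

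HNRNPM, a splicing regulator that binds GU-rich RNA, lies at chr19:8509803-8554002 on the plus strand. It was listed at 51.4, 140 and 94.5 FPKM in control samples 1 to 3, against 61.4, 134 and 102 FPKM in their lyophilized counterparts. HNRNPM spread the most of all members between samples of 1 group, with a coefficient of variation of 46.6% over the controls. HNRNPU, also known as scaffold attachment factor A, lies at chr1:245013602-245027827 on the minus strand. Its values were 41.5, 84.8 and 70.8 FPKM in control samples 1 to 3, against 54.3, 78.6 and 78.8 FPKM in their lyophilized counterparts. For both genes the lyophilized sample was above its control in pairs 1 and 3 and below it in pair 2.

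**Figure D2:**
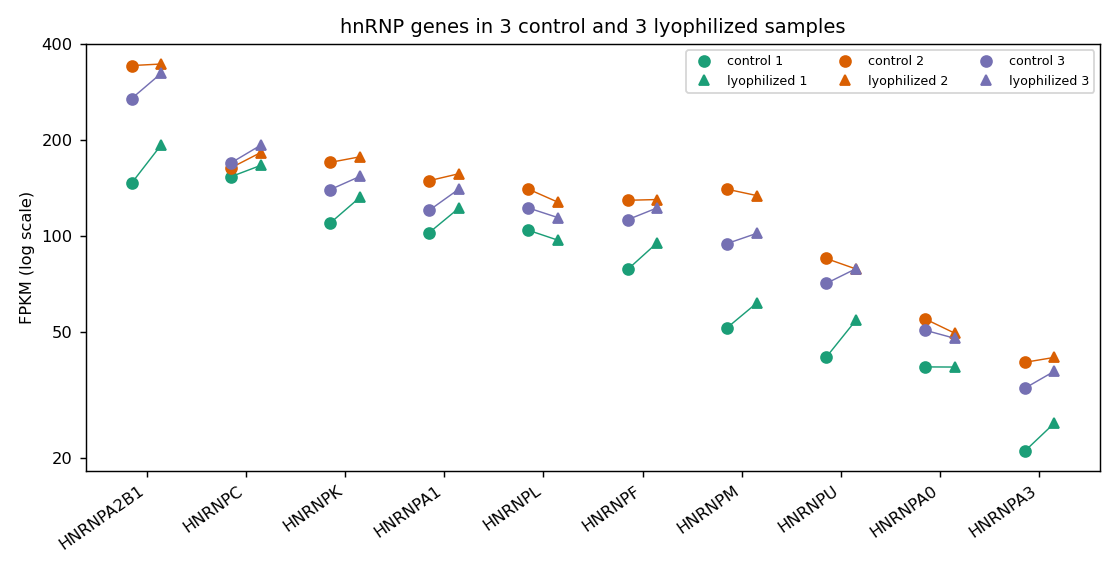
FPKM on a log scale for each hnRNP gene in every sample, with circles for controls, triangles for lyophilized samples, 1 colour for each pair and lines joining the samples of a pair. Pair 1 (green) is the lowest for every gene within either group, and the lines of most genes are short beside the distance between pairs.

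Ordered by control mean, the members ran HNRNPA2B1, HNRNPC, HNRNPK, HNRNPA1, HNRNPL, HNRNPF, HNRNPM, HNRNPU, HNRNPA0 and HNRNPA3. The control ranges of every 2 neighbours in this order overlapped, so no neighbours were separated by more than their spread. Within samples, HNRNPK exceeded HNRNPA1, HNRNPM exceeded HNRNPU, HNRNPU exceeded HNRNPA0 and HNRNPA0 exceeded HNRNPA3 in 6 of 6 samples. HNRNPA2B1 exceeded HNRNPC in 5 of 6, the exception being control 1. HNRNPA1, HNRNPL, HNRNPF and HNRNPM changed places from sample to sample, each neighbouring couple keeping the order in 4 of 6 samples.

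Summed over the 10 genes, the members held 0.166%, 0.301% and 0.252% of all FPKM in control samples 1 to 3, against 0.188%, 0.283% and 0.268% in their lyophilized counterparts. Since FPKM is per length, these are not shares of reads. The control mean of 0.240% ± 0.0679 (SD, n = 3) and the lyophilized mean of 0.246% ± 0.0511 (SD, n = 3) gave a difference of 0.00645 percentage points, smaller than either SD. HNRNPA2B1 alone made up between 17.3% and 24.7% of the members' sum. These are bulk samples of 1 cell line, so differences between its cells cannot be seen. FPKM is scaled within each sample, so these values do not measure RNA per cell.

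For all members but HNRNPC, the level differed more between pairs 1 and 2 than between the conditions. In both groups, pair 1 was lowest and pair 2 highest for 8 of the 10 members, and the exceptions were HNRNPC, which was highest in pair 3, and HNRNPU, for which lyophilized samples 2 and 3 were nearly equal. Over all genes tested this order held for 20.1%. In the controls, the level in pair 2 was 2.73 times that in pair 1 for HNRNPM, 2.34 times for HNRNPA2B1, 2.04 times for HNRNPU and 1.90 times for HNRNPA3. HNRNPC was at the other end with ratios of 1.06 among controls and 1.10 among lyophilized samples, below its fold change of 1.11 between the conditions. The median ratio of pair 2 to pair 1 over the members was 1.60 among controls and 1.35 among lyophilized samples, against 1.10 and 1.05 over all genes tested. Both samples of pair 1 lay below the other 4 samples for 8 of the 10 members, against 26% of all genes and 13 of 24 tested relatives and partners from a list described further on.

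Whether lyophilization and storage changed the hnRNP mRNAs was compared first without the pairing, as the study's own test was made. None of the 10 members passed the threshold, an adjusted p of 0.05 in limma on log2(FPKM + 0.1), and 0.575% of all genes tested did (0.018% higher and 0.557% lower). The 10 also had no unadjusted p under 0.05, which 14.1% of all genes had. Lyophilized and control values overlapped for every member, whereas 9.66% of all genes lay wholly higher and 12.6% wholly lower in the lyophilized samples. The adjusted p-values of the members ran from 0.544 for HNRNPC to 0.929 for HNRNPM.

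Without the pairing, the intervals include the spread between the pairs and show how large a change an unpaired comparison leaves room for. HNRNPC had the narrowest, a fold change of 1.11 with a 95% interval from 0.929 to 1.33. For HNRNPM the fold change was 1.07 with an interval from 0.568 to 2.02, and for HNRNPA2B1 it was 1.17 with an interval from 0.678 to 2.02. Comparing within pairs, as in the next fit, gave narrower 95% intervals from the same 6 samples. They ran from 1.04 to 1.19 for HNRNPC, from 0.971 to 1.18 for HNRNPM and from 1.06 to 1.30 for HNRNPA2B1. Fold changes of all 10 lay between 0.924 and 1.17. A p-value above the threshold therefore does not show that the levels were equal.

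With the replicate number as a block, which compares the samples within each pair, HNRNPA1, HNRNPA2B1, HNRNPC and HNRNPK rose and no member passed the threshold in the other direction. That is 4 of 10 past the threshold, beside 30.7% of all genes (15.9% higher and 14.9% lower). Because FPKM is scaled to the mapped reads of each sample, rose and fell mean higher or lower relative to its other transcripts. They do not mean more or less mRNA per cell, which was not measured. HNRNPA2B1 rose by 0.23 on the log2 scale (SE 0.0657, adjusted p = 0.0287), with ratios of lyophilized to control of 1.32, 1.01 and 1.20 in pairs 1 to 3. HNRNPA1 rose by 0.18 (SE 0.0512, adjusted p = 0.0249), with ratios of 1.20, 1.05 and 1.17. For HNRNPK the increase was 0.16 (SE 0.0519, adjusted p = 0.0474), and the ratios were 1.21, 1.04 and 1.10.

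HNRNPC rose by 0.15 (SE 0.0437, adjusted p = 0.0269), and its ratios of 1.09, 1.12 and 1.14 were the most alike across pairs of these 4 genes. The other 6 members did not pass the threshold with the block. Their log2 fold changes were 0.17 for HNRNPA3 (adjusted p = 0.0658), 0.14 for HNRNPF (adjusted p = 0.0951), 0.14 for HNRNPU (adjusted p = 0.198), 0.10 for HNRNPM (adjusted p = 0.249), -0.08 for HNRNPA0 (adjusted p = 0.2995) and -0.11 for HNRNPL (adjusted p = 0.0801). In all 3 pairs, 6 members were higher in the lyophilized sample (HNRNPA1, HNRNPA2B1, HNRNPA3, HNRNPC, HNRNPF and HNRNPK) beside 33.4% of all genes, and HNRNPA0 and HNRNPL were lower beside 28.8%.

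The calls made with the block changed when a pair was left out, which leaves 2 pairs in the fit. Without pair 1, limma took the variance of each gene almost wholly from the pattern across genes. The p-values of that fit therefore hardly reflect a gene's own spread between samples. Without pair 1, no member passed the threshold while 19.7% of all genes did (8.97% higher and 10.7% lower), and without pair 3 again none did, beside 11.4%. The log2 fold changes of HNRNPA1, HNRNPA2B1, HNRNPC and HNRNPK were 0.15, 0.14, 0.17 and 0.10 without pair 1, where those of HNRNPA2B1 and HNRNPK were smaller by over 1.5 times, and 0.17, 0.21, 0.14 and 0.16 without pair 3. Without pair 2, 8 members passed, all higher, beside 48.1% of all genes. The ratio of lyophilized to control was largest in pair 1 and smallest in pair 2 for 8 of the 10 members, beside 30.3% of all genes and 13 of the 24 relatives and partners. HNRNPC and HNRNPL were the exceptions. When the FPKM of HNRNPA1 and of the overlapping HNRNPA1P10 were summed, a step added after the values were seen, the log2 fold change was 0.13 and the adjusted p with the block was 0.126, past the threshold no longer. With the block and median scaling, another added step, HNRNPC (adjusted p = 0.0749) and HNRNPK (adjusted p = 0.0752) did not pass.

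**Figure D3:**
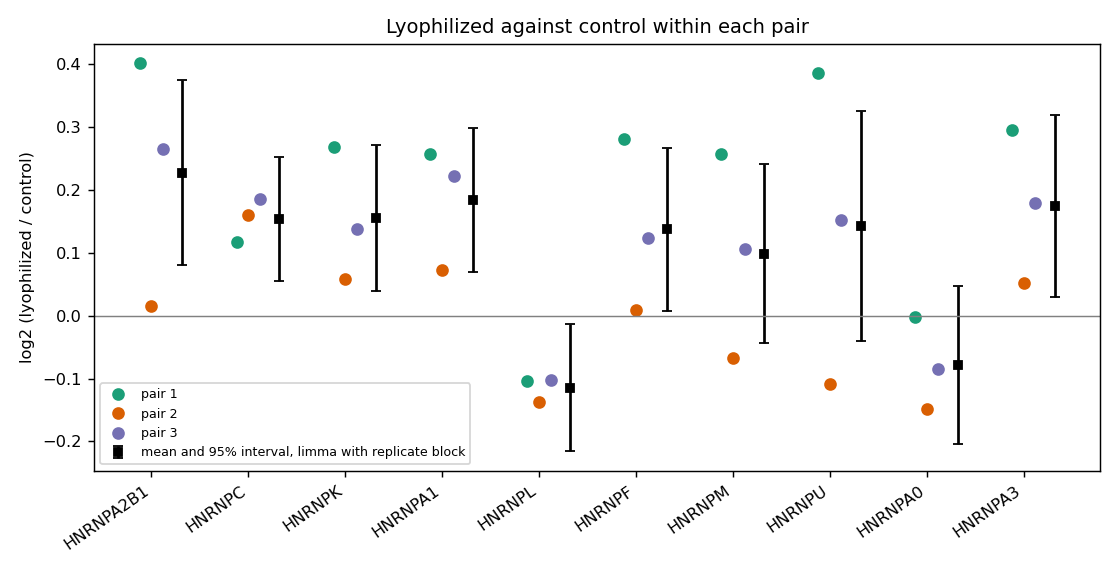
Log2 ratio of lyophilized to control FPKM for each hnRNP gene in pairs 1 to 3 (coloured points), and the log2 fold change with its 95% interval from limma with the replicate block (black squares). Pair 1 (green) lies highest and pair 2 (orange) lowest for 8 of 10 genes, and the intervals of HNRNPM, HNRNPU and HNRNPA0 cross 0.

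The median log2 fold change of the members was 0.15 and that of all genes tested was 0.04, with 8 members above 0 and 2 below under the deposited scaling and also under median and upper quartile scaling, but 4 above and 6 below after a correction for GC content. Leaving out control 1 alone, without the block, gave 2 above and 8 below, with a median of -0.11. That fit keeps lyophilized 1, of the lowest pair, without its partner, so it mixes the difference between pairs with that between conditions. Leaving out a whole pair kept 8 above and 2 below each time, with medians of 0.08, 0.20 and 0.14 without pairs 1, 2 and 3. Adjusting for GC content was part of the comparison because fold changes in these samples followed the base composition of the transcript. Over the 9653 tested genes with a transcript in the annotation, Spearman's rho between GC content and log2 fold change was -0.786. This is across genes, which share the 6 libraries and are not independent replicates, so it is given without a test.

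The members were poorer in GC than most genes tested. Their median transcript GC content was 41.7%, beside a median of 48.1% and quartiles of 41.7% and 56.6% over all genes tested. HNRNPA3 at 37.6% and HNRNPA2B1 at 38.4% were the lowest, and HNRNPM at 53.1% and HNRNPL at 54.3% the highest. For all 10, the 3′ untranslated region (UTR) had less GC than the coding part, from 31.9% in the 3′ UTR against 55.6% in the coding part for HNRNPM to 39.6% against 49.2% for HNRNPA1. The length of the 3′ UTR set the members apart from one another, since it ran from 263 bases in HNRNPM and 355 in HNRNPL to 7501 in HNRNPA0.

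The annotated transcript was not the same as the deposited record for every gene. HNRNPA0 has a transcript of 8713 bases, of which 2967 lie inside the record, and its GC content is 41.0% over the whole and 48.5% inside the record. For HNRNPA1, 1903 of 3744 bases lie inside the record, with a GC content of 42.8% and 45.1%. Over the 10 members, Spearman's rho between GC content and log2 fold change was -0.624 with the whole transcript and -0.830 inside the records, a measure added after the values were seen, and within pairs 1, 2 and 3 the latter was -0.636, -0.649 and -0.806. HNRNPL, with the most GC, was the member with the most negative log2 fold change, and HNRNPA2B1, with the second lowest GC content, had the most positive one.

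**Figure D4:**
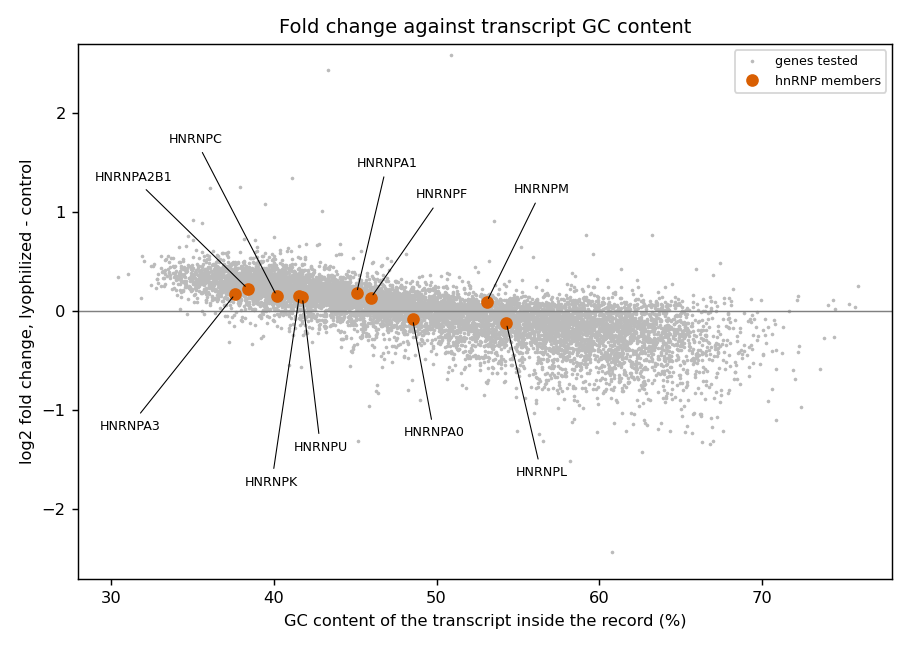
Log2 fold change of lyophilized against control plotted against the GC content of the transcript part inside the record, for the tested genes with a transcript (grey) and the 10 hnRNP genes (orange, named). The cloud slopes downward and the hnRNP genes follow it, with HNRNPA2B1 at 38.4% GC and 0.23 and HNRNPL at 54.3% GC and -0.11.

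After subtraction of a smooth curve over GC content in each sample, in a fit with the block, none of HNRNPA1, HNRNPA2B1, HNRNPC and HNRNPK passed the threshold. HNRNPA1 had a corrected log2 fold change of 0.02 (adjusted p = 0.687), HNRNPA2B1 of -0.05 (adjusted p = 0.439), HNRNPC of -0.08 (adjusted p = 0.415) and HNRNPK of -0.04 (adjusted p = 0.492). The members' median moved from 0.15 to -0.04, where that of all genes was 0.02. HNRNPA0 was the 1 member that passed, lower by 0.29 on the log2 scale (log2 fold change -0.29, adjusted p = 0.00446), beside 18.1% of the genes in that fit (10.1% higher and 7.97% lower).

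The HNRNPA0 result depended on which bases were counted. With the GC content inside the record, an alternative added after the values were seen, its log2 fold change was -0.09 (adjusted p = 0.160), and no member passed beside 17.8% of all genes (10% higher and 7.8% lower). HNRNPM had the largest positive corrected value, 0.20 (adjusted p = 0.0704), and HNRNPA3 the most negative, -0.12 (adjusted p = 0.0922).

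**Figure D5:**
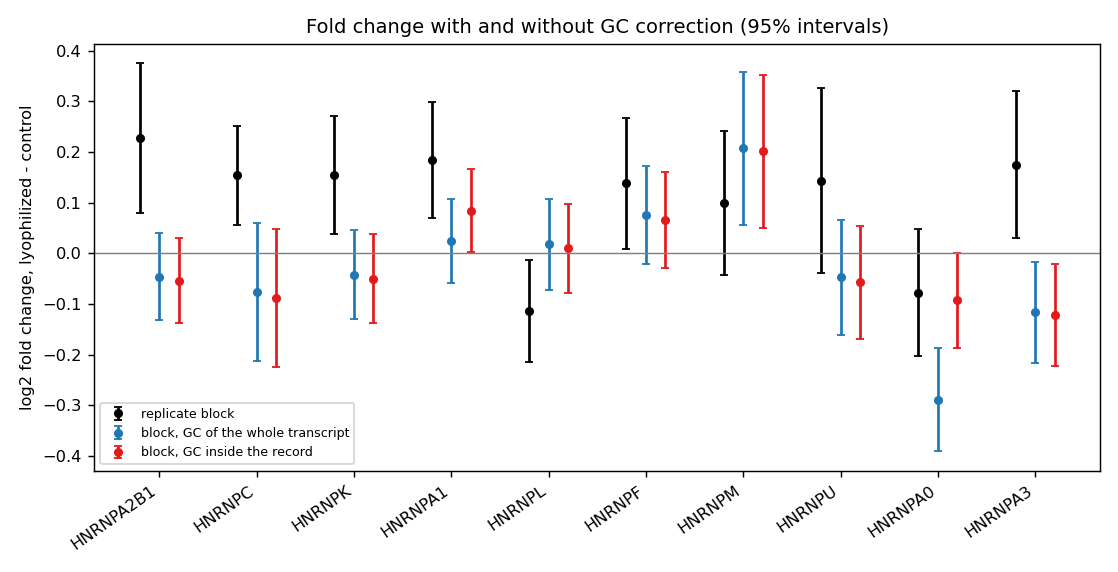
Log2 fold change of each hnRNP gene with its 95% interval in limma fits with the replicate block, without GC correction (black), with the GC content of the whole transcript (blue) and with that of the part inside the record (red). The points of HNRNPA2B1, HNRNPC, HNRNPK, HNRNPU and HNRNPA3 move from above 0 to below it, and the blue and red points of HNRNPA0 lie apart at -0.29 and -0.09.

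Other hnRNP genes and their partners were followed with a list of 25 genes, of which 24 were tested and HNRNPCL1, at nearly 0 FPKM in every sample, was not. Without the block none of the 24 passed the threshold and 1, TNPO2, had an unadjusted p under 0.05. With the block 11 passed, 5 higher and 6 lower, beside the same 30.7% of all genes. Transportins import hnRNP proteins into the nucleus, and the 2 on the list had the largest changes in opposite directions.

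TNPO2 was listed at 20.9, 20.7 and 21.0 FPKM in control samples 1 to 3, against 15.1, 15.5 and 14.8 FPKM in their lyophilized counterparts, groups that did not overlap. It fell by 0.46 on the log2 scale with the block (adjusted p = 0.00178, and adjusted p = 0.0995 without it). TNPO1 was listed at 10.5, 16.6 and 14.6 FPKM in control samples 1 to 3, against 15.6, 20.1 and 20.8 FPKM in their lyophilized counterparts. TNPO1 rose by 0.45 with the block (adjusted p = 0.00408), and its groups overlapped. Their transcripts lay at opposite ends of base composition, with a GC content of 36.0% for TNPO1 and 56.2% for TNPO2.

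Among relatives of the members, HNRNPH3, a guanosine-tract binder, rose by 0.27 with the block (adjusted p = 0.0322). PTBP3, a pyrimidine-tract binder, also rose by 0.27 (adjusted p = 0.0327), as did HNRNPR by 0.27 (adjusted p = 0.0197). SYNCRIP, a close relative of HNRNPR, rose by 0.23 (adjusted p = 0.0445). On the other side, HNRNPUL1, a relative of HNRNPU, fell by 0.22 (adjusted p = 0.0106). PCBP2, a poly(C)-binding KH protein like hnRNP K, fell by 0.19 (adjusted p = 0.0132). In the fit without pair 1, HNRNPH3, PTBP3, HNRNPR, SYNCRIP and PCBP2 did not pass the threshold, whereas TNPO1, TNPO2 and HNRNPUL1 did. As said above, these calls rest on a variance taken across genes and hardly on each gene's own spread.

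After GC correction in the fit with the block, 5 of the 22 listed genes with a GC value passed, 2 higher and 3 lower, beside 18.1% of all genes in that fit. TNPO2 still passed with a log2 fold change of -0.29 (adjusted p = 0.00564), as did PCBP2 with -0.19 (adjusted p = 0.00923). TNPO1 did not, at 0.12 (adjusted p = 0.119), nor did HNRNPUL1 at -0.08, HNRNPH3 at 0.03 and SYNCRIP at 0.02, and the values of PTBP3 (-0.05) and HNRNPR (-0.07) turned below 0. The other three that passed are named after their values were seen, and were HNRNPD (-0.32, adjusted p = 0.00155), PRMT1, an arginine methyltransferase of hnRNP proteins (0.23, adjusted p = 0.00474), and HNRNPAB (0.13, adjusted p = 0.0474). With the GC content inside the record, HNRNPAB no longer passed (adjusted p = 0.0565). HNRNPR was then above 0 again, at 0.11 (adjusted p = 0.123). Its GC content was 35.1% over the whole transcript and 43.3% inside the record, so its direction depended on which bases were counted. The median log2 fold change of the listed genes without correction was 0.08, between those of all genes and of the 10 members.

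The genes whose pattern over the 6 samples was nearest to the members' summed FPKM on the log2 scale were STRAP (Pearson's r = 0.999), RFC4 (r = 0.999), NONO (r = 0.998), POLA1 (r = 0.998) and TBCCD1 (r = 0.998). They were picked from 11134 genes for this likeness, and the 6 points share the 3 pairs. STRAP, a protein that associates with the SMN complex, was listed at 40.1, 66.9 and 55.4 FPKM in control samples 1 to 3, against 47.5, 67.3 and 61.4 FPKM in their lyophilized counterparts. POLA1, the catalytic subunit of DNA polymerase alpha, was listed at 4.18, 12.3 and 8.51 FPKM in control samples 1 to 3, against 5.95, 12.3 and 11.3 FPKM in their lyophilized counterparts. In both genes, as in the members' sum, pair 1 was lowest and pair 2 highest within each group.

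As for the tables as a whole, the total FPKM per sample ran from 468790 to 524744, and between 8213 and 8987 records per sample were listed at 0. Read counts are not in these tables, so that no counting interval was computed, and the read totals that the study states per sample are not used here. B cell markers matched the labelled cell type, with 8 of 8 above a mean of 1 FPKM. Their summed level was 2980 to 3967 FPKM in the control samples and 2729 to 3682 FPKM in the lyophilized samples. None of 4 T cell and 3 monocyte markers was above 1 FPKM, and 1 of 4 fibroblast and epithelial markers was (KRT18, 1.17 FPKM).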

How the data were processed

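Poly(A)-selected RNA of 3 control and 3 lyophilized GM12873 samples was sequenced. The authors mapped single-end reads of 75 bases to hg19 (GRCh37) with TopHat2 2.0.7, kept reads with 1 genomic position, and deposited FPKM values computed with Cufflinks, whose version and gene annotation are not given in the sources used here. The library kit does not mark strand. Starts in the tables count from 0 and were converted to count from 1. Each symbol was taken at its record with the highest mean, and 1622 small RNA symbols were left out.

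Log2(FPKM + 0.1) of genes whose mean exceeded 1 FPKM in either group was compared in limma 3.58.1 (R 4.3.3), with a trend of the variance over the mean, adjustment by Benjamini and Hochberg over all genes tested, and a threshold of 0.05. This scale understates changes of low genes. The main fit had the condition only. In an alternative the replicate number was a block, since GEO's labels pair the samples and deviations from the group means correlated at r = 0.716, 0.603 and 0.476 in pairs 1 to 3. GC content came from GENCODE v44lift37 canonical transcripts, and loess curves of span 0.3 and degree 2 over it were subtracted in each sample for the 9653 genes (86.7%) with a transcript. Copies of 75-base stretches were looked for on either strand. The fits were tested on simulated data. Other alternatives changed the pseudocount, filters, scaling, trend and samples.

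All 10 members are named, with at most 8 listed relatives that passed with the block, by absolute log2 fold change, and the 5 genes nearest in pattern. The members and lists were chosen with earlier results of these data known. Python 3.11.15 and Biopython 1.88 were used.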

Additional observations from a re-analysis of the deposited data

How the results depend on the processing

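Other pseudocounts, filters, scalings and the fit without a variance trend changed no member's direction or call when the pairing was left out, and without a filter on low values 1 listed relative, TNPO2, passed the threshold. The replicate block left the log2 fold changes as they were (0.23 for HNRNPA2B1, 0.18 for HNRNPA1, 0.16 for HNRNPK and 0.15 for HNRNPC, all past the threshold) and moved the counts to 3423 genes, 4 members and 11 relatives from 64, 0 and 0. With the block and median scaling the counts were 3674, 2 and 10, and HNRNPA1 (0.18) and HNRNPA2B1 (0.22) passed while HNRNPC and HNRNPK did not. With the block and GC correction they were 1744, 1 and 5, and with the GC content inside the record 1721, 0 and 4.

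GC correction turned 6 directions. The values with the whole transcript and inside the record were -0.046 and -0.054 for HNRNPA2B1, -0.12 and -0.12 for HNRNPA3, -0.077 and -0.088 for HNRNPC, -0.042 and -0.050 for HNRNPK, -0.047 and -0.057 for HNRNPU, and 0.018 and 0.0093 for HNRNPL. HNRNPA0 passed at -0.29 with the whole transcript. The members' median was -0.044 and -0.052. Other loess spans were not tried.

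With replicates left out, 1 sample or 1 pair at a time and with or without the block, the genes past the threshold ran from 0 to 5359, the members from 0 to 8 and the relatives from 0 to 18. The members' median ran from -0.11 to 0.32 and the difference in their share of FPKM from -0.030 to 0.037 points. Ranges of the log2 fold change were -0.22 to 0.030 for HNRNPA0, 0.055 to 0.33 for HNRNPA1, -0.12 to 0.49 for HNRNPA2B1, -0.089 to 0.38 for HNRNPA3, 0.11 to 0.21 for HNRNPC, -0.069 to 0.29 for HNRNPF, -0.0086 to 0.31 for HNRNPK, -0.22 to -0.0092 for HNRNPL, -0.29 to 0.43 for HNRNPM and -0.16 to 0.36 for HNRNPU. With the block, leaving out pair 1, 2 or 3 gave 2194, 5359 and 1264 genes and 3, 18 and 3 relatives. Without pair 2 in that fit, the log2 fold changes of HNRNPA1 (0.24), HNRNPA3 (0.24), HNRNPF (0.20), HNRNPK (0.20) and HNRNPU (0.27) were among those that passed. Without the block and without pair 1, 131 genes passed. The lowest median came without control 1 and the highest one without control 2, fits in which the other sample of the pair had no partner. With whole pairs left out, the median ran from 0.082 to 0.20. The cause of these changes was not tested, and no counting error was computed from the FPKM values.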
